A study of Mus musculus with 16 samples.

Results

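The messenger RNA levels of 6 genes, Serpina3n, C4b, Il33, Klk6, Cd9 and Anxa2, were followed in oligodendrocytes sorted from mouse brain. They were chosen by symbol as genes of the disease-associated oligodendrocyte state, and they are 6 of the 53801 genes in the deposited table. All 6 passed the filter on low counts, which left 21768 genes for testing. Poly(A) RNA was sequenced from 16 male mice, 4 in each of 4 groups, after the cells had been isolated magnetically. App_HFD and App_NCD are mice homozygous for the App NL-G-F knock-in, fed a high-fat diet (D12492, 60.0% of energy as fat, 524 kcal per 100 g) or a control diet (CE-2, 12.5% of energy as fat, 345.0 kcal per 100 g). WT_HFD and WT_NCD are wild-type C57BL/6J Jcl mice on the same diets. The knock-in allele places a humanised amyloid-β sequence with the Swedish, Beyreuther/Iberian and Arctic mutations in the mouse App gene, under that gene's own control, in every cell that uses it. All mice began their diet at 2 months of age, ate it for 6 months and were sampled at 8 months. The wild-type mice were purchased while the App mice were bred as an inbred line, so breeding source and genotype cannot be told apart. Libraries carry their group's name and the mouse's own number from the labels, which do not say whether mice shared a litter, a cage or a day of sorting. The design allows the levels to be compared by genotype, by diet and by the interaction of both.

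Oligodendrocytes wrap axons in myelin. In mouse models of amyloid deposition and of demyelination, single-cell studies describe mature oligodendrocytes in an altered state that is marked by raised Serpina3n and C4b and is often called disease-associated. The genes followed here encode proteins of different kinds. Serpina3n is a secreted inhibitor of serine proteases, and Klk6 is a secreted trypsin-like serine protease that is abundant in the central nervous system. C4b is complement component 4, which is cleaved in the classical complement pathway and then binds covalently to nearby surfaces. Il33 is an alarmin of the interleukin-1 family that is held in the nucleus and released from damaged cells. Cd9 is a tetraspanin, a membrane protein that gathers other membrane proteins into clusters, and Anxa2 binds phospholipids in the presence of calcium and pairs with S100a10. None of them is made by oligodendrocytes alone. Astrocytes also make Serpina3n, C4b and Il33, and Cd9 is also known as a marker of the microglia that gather around amyloid plaques. Microglia are the resident immune cells of the brain, and Cx3cr1, the fractalkine receptor, is used here as their gene.

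Library totals ran from 64538297 to 84114322 counts in App_HFD, from 69772745 to 101709022 in App_NCD, from 90220118 to 101737328 in WT_HFD and from 98588561 to 217925484 in WT_NCD. The library App_NCD 553 stood apart. It had 18928 genes above 0, against 27151 to 30617 in the other 15 libraries, and 39.4% of its counts came from mitochondrial genes, against 1.22% to 4.62%. Differences of the 6 genes that it enters are therefore given with and without it. Oligodendrocyte markers were abundant throughout. Mbp, which encodes myelin basic protein, was at 2187 to 4236 CPM in App libraries, against 3459 to 4990.3 CPM in WT libraries. Mog, which encodes a glycoprotein of the myelin surface, was at 229 to 729 CPM in App libraries, against 499.5 to 713 CPM in WT libraries, and App_NCD 553 was the lowest library for both. Over all 12 listed oligodendrocyte markers it was the lowest library for 8 and the highest for 3, Mobp among them, and the sum of the 12 was highest in it. Markers of other cells were present too. The summed level of 10 markers of homeostatic microglia was 8215 to 13852 CPM in App_HFD and 6472 to 12671 CPM in App_NCD, against 2633 to 4973 CPM in WT_HFD and 3500.2 to 5878 CPM in WT_NCD. None of these 10 markers was at 0 in any group. Markers of the ependyma and choroid plexus summed to 7016 to 20871 CPM in App libraries, against 17603 to 35959 CPM in WT libraries. CPM is the count relative to the library total, here scaled by the trimmed mean of M values (TMM).

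The start regions of 5 of the 6 genes were read from RefSeq (build GRCm38.p6), each covering 250 bases before to 50 bases after an annotated start of transcription. The windows shown are those of the 3 genes whose levels passed the test as higher in App libraries on each diet, Serpina3n, Cd9 and Anxa2, and of Il33, which did not pass the test in any comparison. They lie at chr12:104406458-104406757 on the plus strand for Serpina3n, chr6:125494711-125495010 on the minus strand for Cd9, chr9:69453433-69453732 on the plus strand for Anxa2, and chr19:29924863-29925162 on the plus strand for the first of the pair of Il33 windows. They are written 5′ to 3′, and capitals mark CpG dinucleotides, the sites of DNA methylation.
Serpina3n: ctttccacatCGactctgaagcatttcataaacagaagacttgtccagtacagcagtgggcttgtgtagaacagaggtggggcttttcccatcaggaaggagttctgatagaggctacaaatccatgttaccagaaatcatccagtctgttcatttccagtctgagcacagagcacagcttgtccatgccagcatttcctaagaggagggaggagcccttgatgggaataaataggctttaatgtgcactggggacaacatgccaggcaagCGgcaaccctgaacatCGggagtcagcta
Cd9: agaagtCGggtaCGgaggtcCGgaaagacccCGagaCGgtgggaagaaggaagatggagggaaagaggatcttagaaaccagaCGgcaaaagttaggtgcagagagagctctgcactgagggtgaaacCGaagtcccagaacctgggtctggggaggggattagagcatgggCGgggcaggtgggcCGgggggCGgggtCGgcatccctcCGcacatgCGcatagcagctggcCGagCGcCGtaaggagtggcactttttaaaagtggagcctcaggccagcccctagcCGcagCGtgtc
Anxa2: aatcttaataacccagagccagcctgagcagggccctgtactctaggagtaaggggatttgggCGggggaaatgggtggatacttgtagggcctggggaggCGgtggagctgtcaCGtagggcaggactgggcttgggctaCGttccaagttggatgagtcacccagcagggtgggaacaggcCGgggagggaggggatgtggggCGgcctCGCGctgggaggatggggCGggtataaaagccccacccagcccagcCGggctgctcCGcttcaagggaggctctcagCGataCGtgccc
Il33: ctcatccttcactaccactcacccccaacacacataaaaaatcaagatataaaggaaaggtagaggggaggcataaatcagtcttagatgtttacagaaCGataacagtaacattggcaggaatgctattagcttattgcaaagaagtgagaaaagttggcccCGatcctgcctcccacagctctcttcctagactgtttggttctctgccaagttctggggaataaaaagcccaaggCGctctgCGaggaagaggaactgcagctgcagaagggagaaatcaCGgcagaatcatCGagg
The Serpina3n window held 3 CpG dinucleotides and was 48.7% G and C. The Cd9 window held 18 and was 61.3% G and C, the Anxa2 window held 13 at 63.7%, and the Il33 window held 6 at 46.3%. Over all 32851 windows the quartiles of the CpG count were 3, 7 and 20. Of the 3 genes that were higher on each diet, Serpina3n was at the lower quartile, while Cd9 and Anxa2 lay between the median and the upper quartile.

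Short motifs were searched on both strands of the 7 windows of these 5 genes. TTCNNNGAA, a core read by STAT factors, was in none of them, against 8.30% of all windows. AANNGAAA, a core read by interferon regulatory factors, was in the Il33 window shown, against 23.9% of all windows. TATAAA, the TATA box, was in the Anxa2 window, 17 bases before the start, and in both Il33 windows, against 13.6% of all windows. In the Il33 window shown it shared bases with the AANNGAAA match. A match describes the letters only, and the absence of one says only that these letters are not in these windows.

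Serpina3n (ENSMUSG00000021091) lies on the plus strand of chromosome 12 at 104406729 to 104414329 in mm10, with 2064 exonic bases. Its level was 50.9, 40.7, 46.3 and 62.4 CPM in the App_HFD libraries 547, 559, 560 and 561, and 39.4, 30.9, 38.1 and 27.8 CPM in the App_NCD libraries 537, 538, 545 and 553. It was 20.3, 24.3, 24.7 and 21.0 CPM in the WT_HFD libraries 2, 3, 15 and 16, and 25.2, 17.0, 8.71 and 15.8 CPM in the WT_NCD libraries 4, 5, 11 and 12. Every App library was above every WT library, and the lowest App value was that of App_NCD 553. The group means ran in the order App_HFD (50.1 ± 9.20 CPM), App_NCD (34.0 ± 5.60), WT_HFD (22.6 ± 2.25) and WT_NCD (16.7 ± 6.76; SD, n = 4 each). The WT groups overlapped, so their order lay within the spread.

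Klk6 (ENSMUSG00000050063) lies on the plus strand of chromosome 7 at 43824499 to 43832030, with 1513 exonic bases. Its level was 65.5, 33.7, 51.9 and 50.9 CPM in App_HFD and 25.5, 41.2, 36.9 and 15.3 CPM in App_NCD, with libraries in the same order as above. It was 53.3, 57.7, 55.0 and 41.1 CPM in WT_HFD and 26.3, 29.1, 42.3 and 41.7 CPM in WT_NCD. The lowest of the 16 values was that of App_NCD 553, and the App range enclosed the WT range. The means sorted by diet: 50.5 ± 13.0 CPM in App_HFD and 51.8 ± 7.35 in WT_HFD, against 29.7 ± 11.7 in App_NCD and 34.8 ± 8.37 in WT_NCD (SD, n = 4 each), with overlap between the diets in each genotype.

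C4b (ENSMUSG00000073418) lies on the minus strand of chromosome 17 at 34728380 to 34743882, with 5695 exonic bases. Its level was 427, 368, 361 and 508 CPM in App_HFD and 376, 345, 398 and 57.6 CPM in App_NCD. It was 172, 196, 191 and 201 CPM in WT_HFD and 212, 173, 165 and 180.0 CPM in WT_NCD. App_NCD 553 had the lowest C4b level of the 16 libraries, while the other 7 App libraries were all above the 8 WT libraries. The App_NCD mean was 294 ± 159 CPM (SD, n = 4) with this library and 373 ± 26.6 CPM (SD, n = 3) without it, against 182 ± 20.5 CPM in WT_NCD (SD, n = 4). The means of App_HFD (416 ± 68.4 CPM) and WT_HFD (190.1 ± 12.5 CPM; SD, n = 4 each) were separated by more than either spread. Of the 5280 stretches of 100 bases in the C4b transcript, 871 (16.5%) occur identically in C4a, so reads there may be divided between these genes and the level of either is uncertain. No such stretch was shared with another gene in Il33, Klk6, Cd9 or Anxa2, and 4 of 1965 in Serpina3n were shared.

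Il33 (ENSMUSG00000024810) lies on the plus strand of chromosome 19 at 29925114 to 29960718, with 2886 exonic bases. Its level was 815, 629.6, 755 and 864 CPM in App_HFD and 585, 675, 762 and 657 CPM in App_NCD. It was 694, 747, 914 and 849.8 CPM in WT_HFD and 533, 846, 562 and 778 CPM in WT_NCD. All 4 groups overlapped, and App_NCD 553 lay within its group. The means were 766 ± 101 CPM in App_HFD, 670.1 ± 72.6 in App_NCD, 801 ± 99.2 in WT_HFD and 679.7 ± 156 in WT_NCD (SD, n = 4 each), and no neighbours in their order differed beyond the spread.

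Cd9 (ENSMUSG00000030342) lies on the minus strand of chromosome 6 at 125460266 to 125494791, with 2044 exonic bases. Its level was 978, 929.7, 745 and 663 CPM in App_HFD and 599, 784, 967 and 809 CPM in App_NCD. It was 357, 299, 359 and 353 CPM in WT_HFD and 361, 358, 283 and 360.3 CPM in WT_NCD. The lowest App library was well above the highest WT library, and App_NCD 553 lay inside its group. The diet groups overlapped within each genotype, with means of 829 ± 149.6 CPM in App_HFD, 789.7 ± 151 in App_NCD, 342 ± 28.4 in WT_HFD and 341 ± 38.4 in WT_NCD (SD, n = 4 each).

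Anxa2 (ENSMUSG00000032231) lies on the plus strand of chromosome 9 at 69453620 to 69491795, with 3731 exonic bases. Its level was 36.1, 38.2, 31.7 and 26.5 CPM in App_HFD and 23.7, 32.2, 35.2 and 18.3 CPM in App_NCD. It was 11.2, 22.3, 20.1 and 15.9 CPM in WT_HFD and 16.2, 9.95, 12.9 and 14.6 CPM in WT_NCD. On each diet the App libraries were all above the WT libraries, although App_NCD 553 lay below 2 of the WT_HFD libraries. The means ran in the order App_HFD (33.1 ± 5.17 CPM), App_NCD (27.3 ± 7.73), WT_HFD (17.4 ± 4.89) and WT_NCD (13.4 ± 2.66; SD, n = 4 each), and the diet groups overlapped in each genotype.

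Per kilobase of exon the 6 genes lay far apart. Over all 16 libraries the mean level was 281 CPM per kilobase for Cd9, 253 for Il33, 47.5 for C4b, 27.6 for Klk6, 14.9 for Serpina3n and 6.12 for Anxa2. The leading pair changed places with genotype. Cd9 stood at 396 CPM per kilobase and Il33 at 249 in the 8 App libraries, against 167 for Cd9 and 257 for Il33 in the 8 WT libraries.

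**Figure D1:**
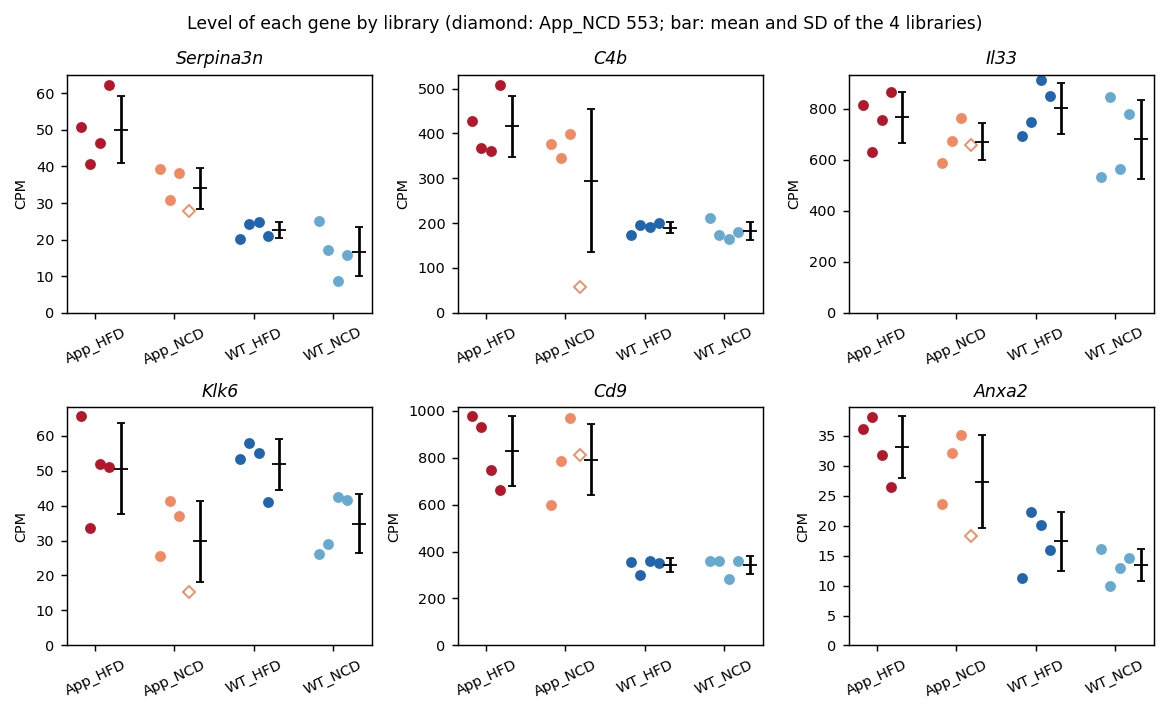
Level in CPM (vertical axes, from 0) of each gene in the 4 groups, 1 point per library, with the mean and SD of the 4 libraries beside each group and App_NCD 553 as an open diamond. Serpina3n, Cd9 and Anxa2 were higher in App libraries than in WT libraries on each diet, C4b was so except in App_NCD 553 (57.6 CPM), and Il33 and Klk6 overlapped between genotypes.

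In the knock-in, the protease inhibitor Serpina3n, the tetraspanin Cd9 and the annexin Anxa2 were higher on each diet, at about the same size. On the control diet, 3 of the 6 genes rose in App_NCD relative to WT_NCD, where 8.39% of all tested genes were called in either direction and 6.5% as higher. Serpina3n rose by 1.03 ± 0.25 on the log2 scale (SE; a fold of 2.04; edgeR quasi-likelihood test, adjusted p = 0.0171). Cd9 rose by 1.21 ± 0.17 (adjusted p = 0.000313) and Anxa2 by 1.03 ± 0.24 (adjusted p = 0.0158). The groups of these 3 genes did not overlap, as held for 7.66% of tested genes in this direction. C4b had a difference of 0.69 ± 0.38 that did not pass (adjusted p = 0.257). Il33 and Klk6 had differences of -0.02 ± 0.17 and -0.23 ± 0.28, with 95% intervals from -0.38 to 0.34 and from -0.81 to 0.36. In bulk RNA, fewer or more cells of a type and less or more RNA per cell cannot be told apart, and this holds for every difference given here.

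With App_NCD 553 left out, 4 of the 6 genes were called on the control diet, against 17.5% of tested genes in either direction and 10.2% as higher. The added gene was C4b, which rose by 1.00 ± 0.12 (a fold of 2.01; adjusted p = 5.98e-05), and its groups then did not overlap, as held for 13.3% of tested genes in this direction. Serpina3n rose by 1.09 ± 0.24, Cd9 by 1.17 ± 0.16 and Anxa2 by 1.15 ± 0.22 (adjusted p = 0.00669, 0.000177 and 0.00204). Il33 and Klk6 had differences of -0.04 ± 0.17 and -0.05 ± 0.22.

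On the high-fat diet, the same 3 genes rose in App_HFD relative to WT_HFD, where 7.14% of tested genes were called in either direction and 5.09% as higher. Serpina3n rose by 1.15 ± 0.25 (adjusted p = 0.00927), Cd9 by 1.28 ± 0.17 (adjusted p = 0.000215) and Anxa2 by 0.93 ± 0.24 (adjusted p = 0.0286). C4b had a difference of 1.13 ± 0.38 that missed the threshold (adjusted p = 0.0948), although its groups did not overlap. Groups that did not overlap in this direction were found for 15% of tested genes. App_NCD 553 is in neither of these groups but enters the shared estimate of the spread. Without it C4b passed in this comparison too, at 1.11 ± 0.12 (adjusted p = 1.1e-05), where 19.3% of tested genes were called in either direction and 10.8% as higher, and 13.7% were higher without overlap. Il33 and Klk6 had differences of -0.07 ± 0.17 and -0.04 ± 0.28 with all libraries.

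Averaged over the diets, 4 of the 6 genes rose in App mice, where 17% of tested genes were called in either direction and 10.6% as higher. Cd9 rose by 1.25 ± 0.12, a fold of 2.37 (adjusted p = 2.88e-06), Serpina3n by 1.09 ± 0.17, a fold of 2.13 (adjusted p = 0.000413), and Anxa2 by 0.98 ± 0.17, a fold of 1.97 (adjusted p = 0.000902). C4b rose by 0.91 ± 0.27, a fold of 1.88 (adjusted p = 0.0285), and by 1.06 ± 0.09 without App_NCD 553 (adjusted p = 2.62e-07), where 33.6% of tested genes were called and 16.2% as higher. Without that library Cd9 rose by 1.21 ± 0.11, Serpina3n by 1.11 ± 0.17 and Anxa2 by 1.03 ± 0.15, and Il33 and Klk6 had differences of -0.06 ± 0.12 and -0.05 ± 0.15. The alarmin Il33 and the protease Klk6 did not pass (adjusted p = 0.849 and 0.693). Their 95% intervals, from -0.30 to 0.21 for Il33 and from -0.55 to 0.28 for Klk6, do not reach the size seen in the other 4 genes. The sign of both small differences turned when libraries were scaled to the oligodendrocyte markers (0.27 for Il33 and 0.12 for Klk6). The median log2 difference of the 6 genes was 0.94, beside -0.01 for all tested genes.

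The averaged C4b call did not hold up when other libraries were left out, while its size changed little. It was lost without any one of WT_NCD 5, 11 or 12, WT_HFD 2, 3 or 15, App_NCD 537, 538 or 545, or App_HFD 547 or 561, with differences of 0.79 to 0.90 (adjusted p = 0.0532 to 0.0673). The control-diet call of Serpina3n was lost without WT_NCD 5 (1.00, adjusted p = 0.0578) or WT_NCD 12 (0.97, adjusted p = 0.0665). That of Anxa2 was lost without WT_NCD 5, WT_NCD 11 or App_NCD 545, at 0.88, 0.98 and 0.85. The high-fat call of Anxa2 was lost without any one of WT_HFD 2, 15 or 16 or App_HFD 547, 559 or 560, at 0.75 to 0.98. All 3 Cd9 calls held with any 1 library left out. With library totals in place of TMM, Cd9 alone of the 6 passed on each diet, and C4b no longer passed averaged over the diets (0.80, adjusted p = 0.131). The share of all tested genes called with library totals is not given here.

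**Figure D2:**
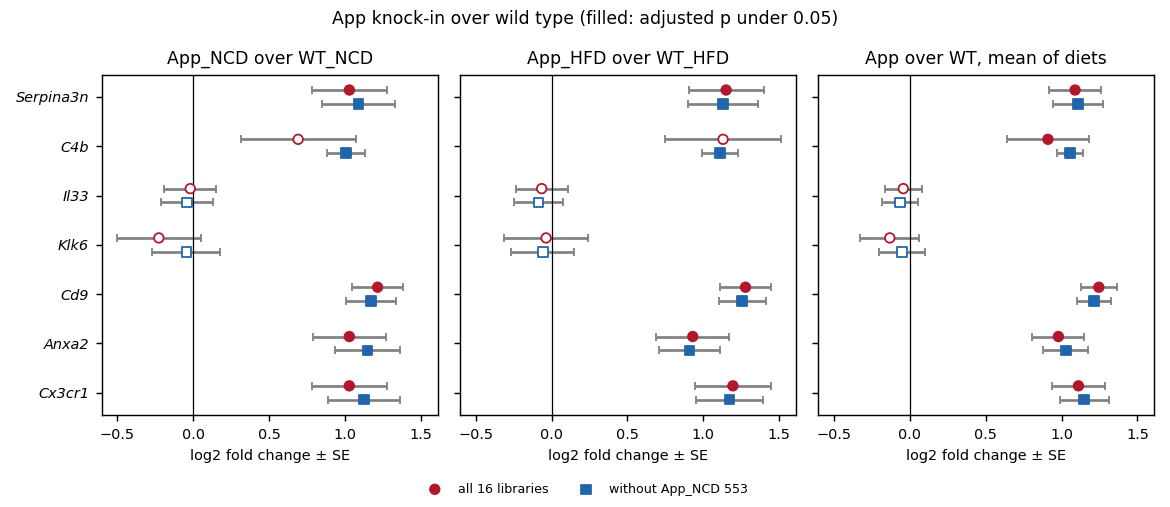
Log2 fold change (horizontal axis, with SE) of App over WT on the control diet, the high-fat diet and averaged over them, for the 6 genes and Cx3cr1, with all 16 libraries (circles) and without App_NCD 553 (squares); filled symbols passed an adjusted p of 0.05. Serpina3n, Cd9, Anxa2 and Cx3cr1 lay near 1 in each panel, C4b had the widest SE with all libraries, and Il33 and Klk6 lay near 0.

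Between the diets, none of the 6 genes passed the test in either genotype, and the protease Klk6 and the protease inhibitor Serpina3n had the highest values. In App mice, edgeR called 0 of the 6 genes in App_HFD against App_NCD, where 0% of all tested genes were called. At an unadjusted p under 0.05 there were 2 of the 6 and 2586 of all tested genes. DESeq2 called 0 of the 6 and limma-voom 0 of the 6. Klk6 had a difference of 0.76 ± 0.28 (95% interval 0.17 to 1.35; adjusted p = 0.392) with all libraries and 0.56 ± 0.23 (adjusted p = 0.63) without App_NCD 553. Serpina3n had a difference of 0.56 ± 0.24 (adjusted p = 0.404), and its 4 App_HFD values were all above the 4 App_NCD values, as held for 3.24% of tested genes in this direction. Without App_NCD 553 its difference was 0.48 ± 0.25 (adjusted p = 0.739). The diet groups of Serpina3n overlapped in WT mice, and those of the other 5 genes overlapped in both genotypes. C4b had a difference of 0.50 ± 0.38 with all libraries and 0.16 ± 0.13 without App_NCD 553. The differences of Il33, Cd9 and Anxa2 were 0.19 ± 0.17, 0.07 ± 0.17 and 0.28 ± 0.24 with all libraries, and 0.19 ± 0.17, 0.09 ± 0.16 and 0.13 ± 0.22 without it. Without it, 0 of the 6 genes and 0% of tested genes were called, and 1 of the 6 and 1575 of all genes were under an unadjusted p of 0.05.

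In wild-type mice, edgeR called 0 of the 6 genes in WT_HFD against WT_NCD and 0% of all tested genes, and 0 of the 6 and 419 of all genes were under an unadjusted p of 0.05. DESeq2 and limma-voom also called 0 of the 6. Klk6 had a difference of 0.57 ± 0.28 and Serpina3n one of 0.44 ± 0.24 (adjusted p = 1 for both). C4b, Il33, Cd9 and Anxa2 had differences of 0.06 ± 0.38, 0.24 ± 0.17, 0.01 ± 0.17 and 0.37 ± 0.24. For Cd9 the 95% interval was -0.35 to 0.36, and for Klk6 it was -0.02 to 1.16. App_NCD 553 is in neither group but enters the estimate of the spread, and without it the interval for Klk6 was 0.13 to 1.01 (unadjusted p = 0.0153, adjusted p = 0.82, edgeR), with 0 of the 6 genes called.

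Averaged over the genotypes, 0 of the 6 genes were called, against 0.0459% of tested genes (10 genes). At an unadjusted p under 0.05 there were 2 of the 6 and 1504 of all tested genes, and DESeq2 called 0 of the 6. Klk6 had a difference of 0.67 ± 0.20 (95% interval 0.25 to 1.08; adjusted p = 0.495, edgeR). Serpina3n had a difference of 0.50 ± 0.17 (adjusted p = 0.649, edgeR), and limma-voom called it at 0.48 (adjusted p = 0.0237). Over all tested genes limma-voom called more than edgeR in the genotype comparisons, and its share for this diet effect is not given here. C4b, Il33, Cd9 and Anxa2 had differences of 0.28 ± 0.27, 0.21 ± 0.12, 0.04 ± 0.12 and 0.33 ± 0.17. Without App_NCD 553, 0 of the 6 genes were called, against 0.255% of tested genes. Klk6 then had a difference of 0.56 ± 0.15 (adjusted p = 0.192), Serpina3n 0.46 ± 0.17 and C4b 0.11 ± 0.09, while Il33, Cd9 and Anxa2 were at 0.21 ± 0.12, 0.05 ± 0.11 and 0.25 ± 0.15. Cx3cr1 had a difference of -0.17 ± 0.17 (adjusted p = 0.857, edgeR). With log2 Cx3cr1 added as a covariate, Serpina3n was at 0.60 and Klk6 at 0.61 (adjusted p = 0.396 and 0.443, edgeR). With App_NCD 553 also left out, they were at 0.56 and 0.41 (adjusted p = 0.333 and 0.304, edgeR). For the interaction, the diet effect in App minus the diet effect in WT, edgeR called 0 of the 6 genes, where 0% of tested genes were called. At an unadjusted p under 0.05 there were 0 of the 6 and 639 of all genes, and DESeq2 and limma-voom called 0 of the 6. The interaction was 0.12 ± 0.34 for Serpina3n, 0.44 ± 0.53 for C4b, -0.04 ± 0.24 for Il33, 0.19 ± 0.39 for Klk6, 0.06 ± 0.24 for Cd9 and -0.10 ± 0.34 for Anxa2. Without App_NCD 553 it was 0.04 ± 0.33, 0.11 ± 0.17, -0.04 ± 0.23, -0.01 ± 0.31, 0.08 ± 0.22 and -0.24 ± 0.29 in the same order. None was called without it, and 0% of tested genes were.

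**Figure D3:**
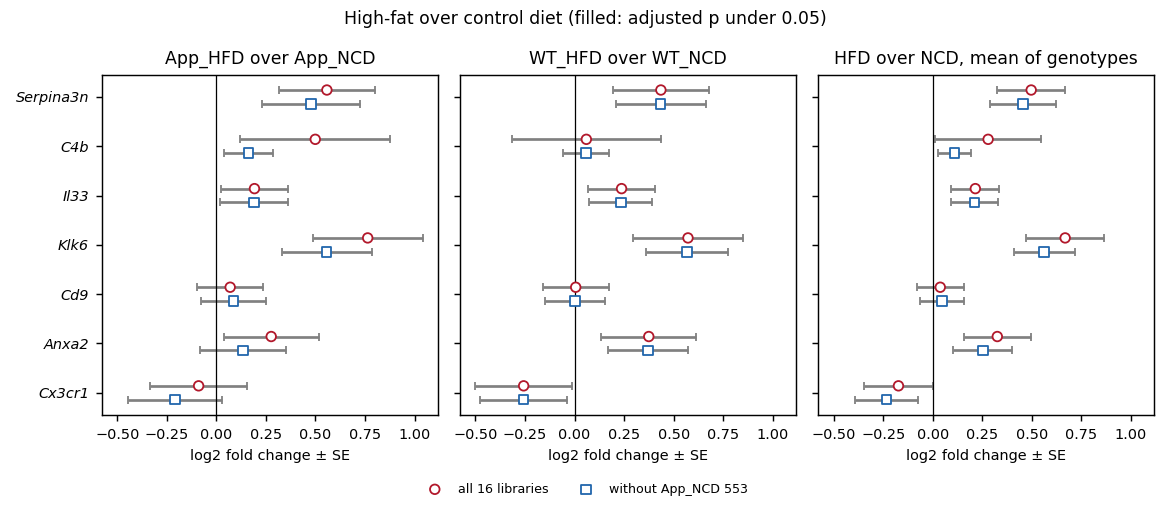
Log2 fold change (horizontal axis, with SE) of the high-fat over the control diet in App mice, in WT mice and averaged over them, with all 16 libraries (circles) and without App_NCD 553 (squares). No symbol is filled, since none of these values passed an adjusted p of 0.05; Klk6 had the highest values, at 0.76 in App mice, 0.57 in WT mice and 0.67 averaged.

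The microglial gene Cx3cr1 (ENSMUSG00000052336) was itself higher in App libraries, by about as much as the genes that rose. Its level was 865, 1014, 780.4 and 686 CPM in App_HFD and 1007, 926, 978 and 649.6 CPM in App_NCD, against 356, 291, 273 and 542 CPM in WT_HFD and 628, 394, 325 and 399 CPM in WT_NCD. The App and WT libraries did not overlap, and the lowest App library was App_NCD 553. Averaged over the diets Cx3cr1 rose by 1.11 ± 0.18 (adjusted p = 0.000361). Since the Cx3cr1 level separates the genotypes, the knock-in and the share of microglial RNA cannot be told apart from group differences alone. A model with log2 Cx3cr1 as a covariate cannot separate them either, because the covariate does not overlap between the genotypes. A call lost or gained in it is therefore not read as an effect of either. With this covariate, edgeR called 0 of the 6 genes on either diet or averaged over them. Of all tested genes it called 1.13% on the control diet, 0.524% on the high-fat diet and 1.01% averaged. Cd9 alone of the 6 had an unadjusted p under 0.05, in each of the 3 comparisons. At an unadjusted p under 0.05 there were 4308, 1603 and 3285 of all tested genes. The averaged differences were then 1.01 for Cd9, 0.68 for Serpina3n, 0.70 for Anxa2 and 0.20 for C4b. With App_NCD 553 also left out, C4b, Cd9, Anxa2 and Klk6 had an unadjusted p under 0.05 on each diet and averaged, and Serpina3n and Il33 did not. No count over all tested genes stands beside these unadjusted values, so they are not read as calls. C4b alone was called, on each diet and at 0.96 averaged over the diets (adjusted p = 0.0147), against 1.59%, 2.24% and 2.51% of tested genes on the control diet, the high-fat diet and averaged. The averaged differences of the others were 0.91 for Cd9, 0.98 for Anxa2, 0.76 for Serpina3n, 0.73 for Klk6 (adjusted p = 0.269) and 0.20 for Il33. That of Klk6 was -0.05 without the covariate over the same libraries.

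Within a genotype, the relation of each gene to Cx3cr1 was computed over 8 libraries, because the Cx3cr1 levels of the genotypes did not overlap. None of the 12 relations passed after adjustment over them (exact two-sided permutation tests over pairings, Benjamini-Hochberg), and 1 had an unadjusted p under 0.05, that of Klk6 in WT libraries. In the App libraries Pearson's r was 0.62 for Anxa2, 0.53 for C4b, 0.23 for Cd9, 0.14 for Klk6, -0.11 for Serpina3n and -0.44 for Il33, with adjusted permutation p of 0.528 to 0.800. Spearman's rho was 0.57, 0.12, 0.12, -0.21, -0.07 and -0.50 in the same order, with adjusted p of 0.718 to 0.935. In the WT libraries r was 0.51 for C4b, 0.45 for Cd9, 0.18 for Serpina3n, -0.21 for Anxa2, -0.33 for Il33 and -0.76 for Klk6, with adjusted permutation p of 0.374 to 0.800. Spearman's rho was 0.43, 0.45, 0.05, -0.24, -0.26 and -0.88 in the same order, with adjusted p of 0.0869 for Klk6 and 0.718 to 0.935 for the other 5 genes.

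The App values changed with the libraries that entered. Without App_NCD 537, r of Anxa2 was 0.88 and passed (adjusted permutation p = 0.0381). Without the 2 App libraries farthest from the median of Cx3cr1, App_NCD 553 and App_HFD 561, r was -0.12 for Anxa2, -0.01 for C4b and -0.01 for Cd9. It was -0.80 for Klk6, -0.50 for Serpina3n and -0.67 for Il33 over those 6 libraries. Without App_NCD 553 alone (7 libraries), r was -0.77 for Serpina3n, -0.66 for C4b, -0.79 for Il33 and -0.70 for Klk6, and 0.32 for Cd9 and 0.27 for Anxa2, with adjusted permutation p of 0.160 to 0.671. In the WT libraries the 2 farthest were WT_NCD 4 and WT_HFD 16, and without them r was -0.74 for Klk6, -0.79 for Anxa2, -0.59 for C4b, -0.36 for Serpina3n, -0.07 for Il33 and 0.40 for Cd9. So the sign of r for C4b and Serpina3n turned in WT, and Klk6, Cd9, Anxa2 and Il33 kept theirs. WT_NCD 4 and WT_HFD 16 came closest to the App libraries in Cx3cr1, at 628 and 542 CPM. Their Cd9 levels were 361 and 353 CPM, their Serpina3n levels 25.2 and 21.0 CPM and their C4b levels 212 and 201 CPM, which lay below every App library except App_NCD 553 in C4b. Their summed levels of plaque-associated microglia markers were 256 and 213 CPM, against 2815 to 5104 CPM in App libraries. Without both of them and App_NCD 553, an alternative chosen after the data were seen, the same 4 genes passed in App against WT on each diet and averaged. That choice removes the WT libraries highest in Cx3cr1, and the share of all tested genes called with it is not given here.

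**Figure D4:**
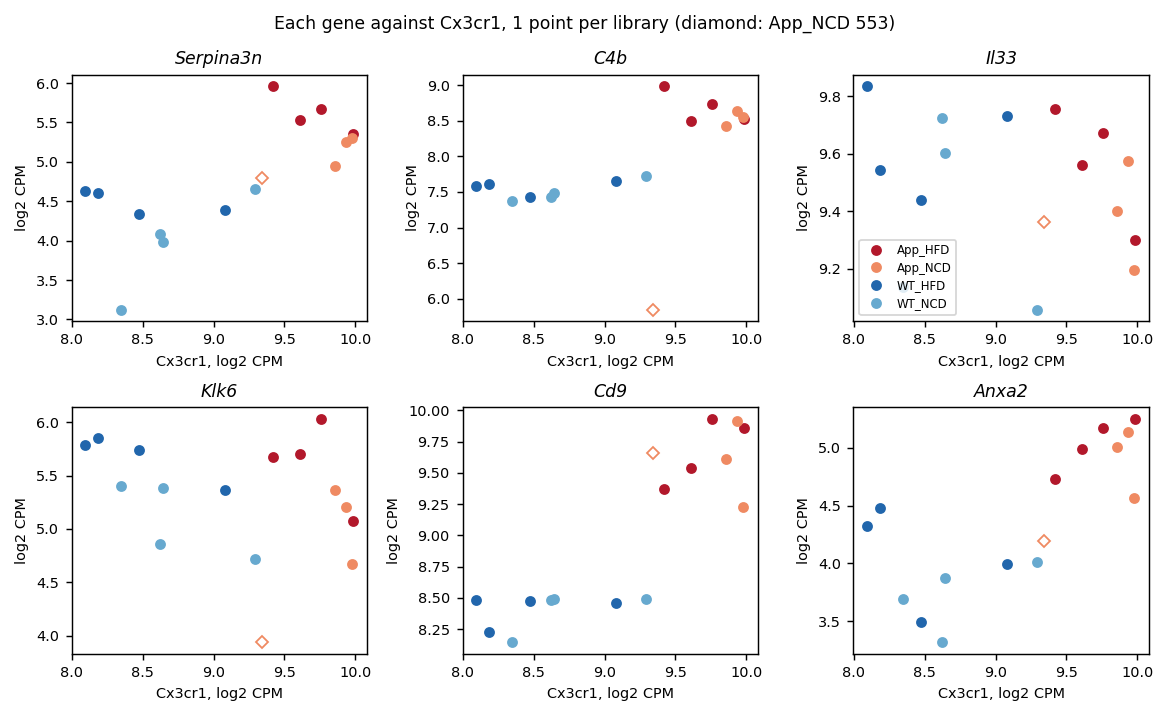
Level of each gene against that of Cx3cr1, both in log2 CPM, 1 point per library, coloured by group, with App_NCD 553 as an open diamond. The App and WT libraries do not overlap along the Cx3cr1 axis, although WT_NCD 4 (628 CPM) lies close to App_NCD 553 (649.6 CPM). Cd9 and Serpina3n are higher in the App libraries, and within a genotype no gene has a relation that passed the adjusted test.

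The paralogues and binding partners of the 6 genes differed among themselves. Of 26 listed, 22 were tested, and 8 rose and 1 fell in App averaged over the diets, with a median of 0.33, beside 10.6% of all tested genes called as higher, 6.34% as lower and a median of -0.01. Without App_NCD 553, 12 rose and 2 fell, beside 16.2% of tested genes called as higher and 17.4% as lower. The receptor side of Il33 moved although Il33 did not pass. Il1rl1, which encodes the ST2 receptor for Il33, was at 9.00, 10.2, 7.24 and 9.09 CPM in App_HFD and 10.9, 9.58, 8.85 and 4.29 CPM in App_NCD, against 1.62, 2.26, 1.23 and 3.12 CPM in WT_HFD and 2.55, 1.31, 1.57 and 2.23 CPM in WT_NCD. All App libraries were above all WT libraries, and Il1rl1 rose by 2.12 ± 0.23 averaged over the diets (adjusted p = 1.25e-05). Il1rap, the other chain of that receptor, had a difference of 0.21 ± 0.23 (adjusted p = 0.579). The receptor is also found on immune cells, and the part of other cells in this difference was not tested.

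C4a, the close copy of C4b, was at 15.0, 12.1, 12.5 and 19.1 CPM in App_HFD and 17.1, 12.1, 12.8 and 1.36 CPM in App_NCD, against 5.39, 6.37, 5.80 and 6.64 CPM in WT_HFD and 6.76, 5.95, 4.46 and 5.93 CPM in WT_NCD. It followed the pattern of C4b, with App_NCD 553 again the lowest library, and rose by 1.10 ± 0.32 averaged over the diets (adjusted p = 0.028). This call was lost at 0.91 to 1.09 without any one of the 11 libraries named above for C4b. C4a made up 2.31% to 4.36% of the counts of the pair in App libraries, against 2.63% to 3.32% in WT libraries. Reads shared between the copies may contribute to both values, and this was not tested.

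Among the annexins, which bind membranes in the presence of calcium, 4 listed paralogues of Anxa2 rose. Averaged over the diets, Anxa3 rose by 2.04 ± 0.21 (adjusted p = 7.71e-06), Anxa4 by 1.00 ± 0.11 (adjusted p = 1.66e-05), Anxa5 by 0.82 ± 0.13 (adjusted p = 0.000475) and Anxa7 by 0.46 ± 0.08 (adjusted p = 0.00116). Anxa6 fell by 0.51 ± 0.14 (adjusted p = 0.0199), and Anxa1 and Anxa11 did not pass, at -0.70 ± 0.47 and -0.36 ± 0.15. S100a10, the partner of Anxa2, had a difference of -0.19 ± 0.21 (adjusted p = 0.602) at 2.72 to 5.47 CPM in App libraries, against 1.93 to 5.73 CPM in WT libraries. So Anxa2 was higher in App libraries and its partner was not detectably so. F2r, a thrombin receptor cleaved by serine proteases, rose by 1.16 ± 0.18 (adjusted p = 0.000402), and F2rl1, a related receptor, had a difference of -0.03 ± 0.44 at no more than 1.00 CPM. Among the tetraspanins and partners of Cd9, Cd81 had a difference of 0.08 ± 0.22 (adjusted p = 0.846) with all libraries and rose by 0.21 ± 0.07 (adjusted p = 0.0219) without App_NCD 553, in which it stood at 211 CPM against 919 CPM or more in the other App libraries. Ptgfrn, a binding partner of Cd9, rose by 0.72 ± 0.16 (adjusted p = 0.0045), while Cd63, Cd151 and Igsf8 did not pass. Anxa6, Anxa1, Anxa11, Il1rap, F2rl1, Ptgfrn, Cd63, Cd151 and Igsf8 lie outside the naming rule and were added after their values were seen.

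Of 14 other genes known from the same oligodendrocyte state, 8 rose and 0 fell in App averaged over the diets, with a median of 1.04, against 10.6% of tested genes called as higher and 6.34% as lower. Without App_NCD 553, 10 rose and 1 fell, against 16.2% and 17.4%. The lysosomal protease Ctsb rose by 2.01 ± 0.17 (adjusted p = 7.13e-07). Genes of antigen presentation by MHC class I rose with it: H2-D1 by 1.77 ± 0.21, H2-K1 by 1.24 ± 0.17, the class I regulator Nlrc5 by 1.24 ± 0.16 and the immunoproteasome subunit Psmb8 by 1.69 ± 0.32 (adjusted p = 3.2e-05, 0.000134, 7.79e-05 and 0.00182). B2m, the light chain of class I molecules, rose by 3.54 ± 0.61 (adjusted p = 0.000784) with all libraries and by 2.37 ± 0.27 without App_NCD 553, whose B2m level was 17354 CPM. The levels of H2-D1 and H2-K1 are uncertain, since class I genes are near-identical and reads may be divided between them. Psmb9 and Tap1 completed the 8 genes that rose, and both lie outside the naming rule. Plin4, Apod, Socs3, Stat3, Sgk1 and Fxyd1, also outside that rule, did not pass with all libraries.

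Of 7 genes that mark states of mature oligodendrocytes, 1 rose and 1 fell averaged over the diets, with a median of -0.24. Of all tested genes, 10.6% were called as higher and 6.34% as lower. Without App_NCD 553, 1 rose and 3 fell (median -0.30), beside 16.2% of tested genes called as higher and 17.4% as lower. Pmp22, a myelin protein, rose by 0.70 ± 0.10 (adjusted p = 0.000125), and Opalin, a protein of central myelin, fell by 0.53 ± 0.15 (adjusted p = 0.022). Grm3, Hopx, Car2 and S100b had differences of -0.36, -0.50, -0.24 and -0.16 that did not pass, of which those of Grm3 and Car2 passed without App_NCD 553, at -0.30 and -0.32, and that of Grm3 also without App_NCD 537, at -0.50. With the Cx3cr1 covariate, 14 of the 15 named genes of these 3 lists that had passed averaged over the diets no longer did, and Anxa5 was the exception, at 1.27. Calls fell likewise over all tested genes, to 1.01% with the covariate, against 17% without it. Among the lost calls Ctsb was at 1.20, Anxa3 at 1.25, Il1rl1 at 1.00 and H2-K1 at 0.30 with the covariate. With App_NCD 553 also left out, 10 of the 15 did not pass, while Anxa3, Anxa4, Anxa5, Ctsb and H2-D1 did, against 2.51% of all tested genes called.

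**Figure D5:**
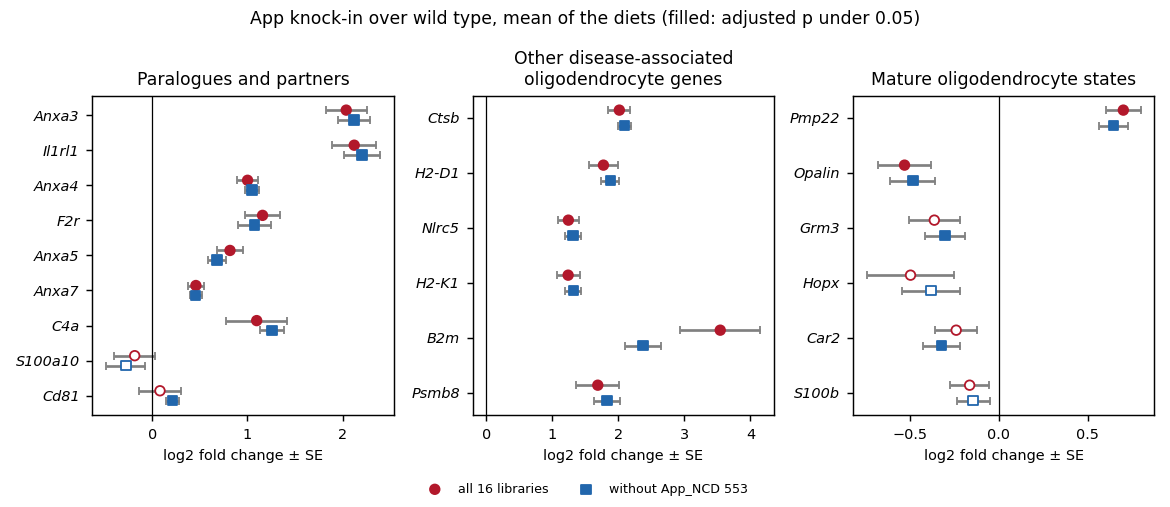
Log2 fold change of App over WT averaged over the diets (horizontal axes, with SE; scales differ between panels) for named paralogues and partners, other genes of the disease-associated state and genes of mature oligodendrocyte states, with all 16 libraries (circles) and without App_NCD 553 (squares); filled symbols passed an adjusted p of 0.05. Il1rl1 and Anxa3 lay above 2, S100a10 and Cd81 near 0, and B2m at 3.54 with all libraries and 2.37 without App_NCD 553.

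Markers of several other cell types also differed by genotype, where 10.6% of all tested genes were called as higher and 6.34% as lower. Averaged over the diets, 9 of 10 markers of homeostatic microglia and 8 of 8 markers of plaque-associated microglia rose, with medians of 1.44 and 6.17. The summed level of the plaque-associated markers was 2815 to 5104 CPM in App_HFD and 4044 to 4817 CPM in App_NCD, against 143 to 213 CPM in WT_HFD and 165 to 256 CPM in WT_NCD. Of 12 oligodendrocyte markers, 0 rose and 2 fell (median -0.28). Of 8 astrocyte markers, 1 rose and 2 fell (median -0.26), and their summed level was 1922 to 5905 CPM in App libraries, against 2984 to 5027 CPM in WT libraries. The 5905 CPM was that of App_NCD 553, and the next highest App library was App_NCD 537 at 4100 CPM. App_NCD 553 was the highest library for 5 of these 8 markers and the lowest for 3. Markers of the ependyma and choroid plexus fell in 5 of 6 cases (median -0.88). Their summed level was 7016 to 14639 CPM in App_HFD and 8911 to 20871 CPM in App_NCD. It was 17603 to 35959 CPM in WT_HFD and 24270 to 29886 CPM in WT_NCD. Markers of pericytes and smooth muscle fell in 5 of 6 cases (median -0.72), those of endothelium in 3 of 7 (median -0.83) and those of fibroblasts in 2 of 6 (median -0.64). Of 6 markers of oligodendrocyte precursors 1 rose and 1 fell, and of 7 neuronal markers 1 fell. With all 16 libraries, the shares called among oligodendrocyte and neuronal markers were near the 17% called over all tested genes. Without App_NCD 553, 0 of the 12 oligodendrocyte markers rose and 5 fell (median -0.24). Over all tested genes 16.2% were then called as higher and 17.4% as lower. No marker in these lists was at 0 in every library of a group. The part of these cells in the differences of the 6 genes was not tested, and the Cx3cr1 covariate cannot separate it from genotype.

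Within groups, the 6 genes varied mostly apart from each other. After subtraction of the group means, over the 15 libraries without App_NCD 553, the highest Pearson correlation of log2 CPM between any pair of them was 0.718, between Serpina3n and C4b, and all other pairs lay between -0.31 and 0.34. These are descriptions over libraries that share their scaling, with no test. Of the 9654 genes averaging 10 CPM or more, those most like Serpina3n were Tmem229b (0.931), Zscan26 (0.925) and Ocrl (0.895). Those most like C4b were Mb21d2 (0.867), Zfp410 (0.852) and Ino80d (0.847), and those most like Il33 were Efnb3 (0.947), Lrrc28 (0.946) and Desi1 (0.939). For Klk6 they were Osbpl7 (0.911), Rffl (0.861) and D1Ertd622e (0.854). For Cd9 they were Tpt1 (0.960), Rps21 (0.929) and Bbip1 (0.929), and for Anxa2 they were Nbl1 (0.937), Rgcc (0.871) and Rnf144b (0.846). No gene was named for more than 1 of the 6.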

How the data were processed

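Estimated counts for each gene and library were deposited by the authors, who used fastp 0.23.2, HISAT2 2.2.1, StringTie 2.2.1 and bedtools 2.25.0 on mm10, per the submitters' processing notes; the gene annotation counted against is not given in the sources used here. StringTie estimates counts from coverage and may divide reads between near-identical genes. Every deposited value was already whole, so rounding altered nothing. Of the 53801 gene IDs, 53620 (99.7%) matched GENCODE M21, which gave coordinates.

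Genes were filtered with filterByExpr, scaled by TMM and tested with the robust quasi-likelihood F test of edgeR 4.0.16 under R 4.3.3. The fit held all 16 libraries in their 4 groups, leaving 12 residual degrees of freedom. P-values were adjusted by Benjamini-Hochberg over all 21768 genes, at a threshold of 0.05. SE came from the log2 fold change and the F value. P-values measure the spread between these mice, of which the labels give no litter or batch. The scripts were tested on simulated data. Relations to Cx3cr1 used log2 CPM with a prior count of 0.5. The alternatives were limma-voom (limma 3.58.1, quality weights), DESeq2 1.42.0, other scalings and filters, a Cx3cr1 covariate, the compared groups alone, and each library left out.

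The 6 genes, the gene lists and the tests were chosen with earlier results of these data known. The naming rule took, from each of 3 lists, up to 6 tested genes by smallest p for the averaged genotype effect, plus C4a, Il1rl1, F2r, S100a10 and Cd81. For each of the 6 genes it also took the 3 genes with the most similar pattern. Counting error was small, since each of the 6 genes had at least 539 counts in every library.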

Additional observations from a re-analysis of the deposited data

Results flagged for a closer look

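Each gene's 4 libraries in each group were checked for a value far from the rest, taken as a gap to its nearest neighbour that exceeds Dixon's 95% critical share of the group's range. Of 24 gene and group combinations 3 were beyond it, and chance gives about 1 in 20. C4b in App_NCD 553 had a gap of 0.926 of the range, at 57.6 CPM against 345 to 398 CPM in the other App_NCD libraries, and this library also had 39.4% of its counts from mitochondrial genes. Cd9 in WT_HFD 3 had a gap of 0.909, at 299 CPM against 353 to 359 CPM. Cd9 in WT_NCD 11 had a gap of 0.971, at 283 CPM against 358 to 361 CPM. Both Cd9 values lay on the side away from the App libraries.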

How the results depend on the processing

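Leaving out each library in turn kept the number of the 6 genes called between 1 and 4 for App against WT on the control diet (3 with all libraries), between 2 and 4 on the high-fat diet (3) and between 3 and 4 averaged over the diets (4). It kept 0 called for every diet effect and for the interaction, and 0 to 1 for relations to Cx3cr1 in App libraries. Library totals without TMM gave 1 on each diet and 3 averaged. The compared groups alone gave 1 on the control diet and 4 on the high-fat diet. DESeq2 and oligodendrocyte scaling gave 3 and 4, limma-voom 4 and 4, and no filter 3 and 2 (control diet, then high-fat diet), each with 4 averaged. For library totals, the compared groups alone, oligodendrocyte scaling and no filter, the share of all tested genes called is not given here. Nor is it given for libraries left out other than App_NCD 553. The counts in those settings are therefore not set against a share. The Cx3cr1 covariate gave 0 on each diet and averaged, and 1 in each with App_NCD 553 also left out. limma-voom gave 1 for the averaged diet effect, where its calls over all tested genes are not given here. The cause of these changes was not tested. Against TMM, library totals moved the median of all genes to -0.29 on the control diet and oligodendrocyte scaling to 0.38, and averaged to -0.20 and 0.28. Of all tested genes, edgeR called 1826, 1554 and 3692 on the control diet, the high-fat diet and averaged, DESeq2 3398, 2508 and 5160, limma-voom 7233, 6680 and 10161, and edgeR without App_NCD 553 3900, 4307 and 7502.

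None of the differences that turned sign had passed the test with all libraries and TMM. With oligodendrocyte scaling Il33 was 0.41, 0.12 and 0.27 in App against WT (control diet, high-fat diet, averaged) and Klk6 0.11, 0.13 and 0.12, and averaged S100a10 was 0.12, Car2 0.090 and S100b 0.13. The diet effect was -0.039 for C4b in WT, -0.11 for Il33 in App, and -0.083, -0.21 and -0.15 for Cd9 (WT, App, averaged), and the interaction -0.050 for Serpina3n and -0.13 for Cd9. That scaling without App_NCD 553 gave Il33 0.26, 0.12 and 0.19, Klk6 0.24, 0.13 and 0.19, S100b 0.11, diet effects of -0.039, -0.0063 and -0.023 for C4b and -0.083, -0.023 and -0.053 for Cd9, and interactions of -0.0073 for Serpina3n and -0.10 for Klk6. With the Cx3cr1 covariate Il33 was 0.16, 0.14 and 0.15, Klk6 0.089, 0.30 and 0.20, C4b on the control diet -0.00040, Cd81 -0.52, Car2 0.10 and S100b 0.058. Without App_NCD 553 as well, Il33 was 0.22, 0.18 and 0.20, Klk6 0.73, 0.73 and 0.73, S100b 0.28 and the Serpina3n interaction -0.0023. limma-voom gave Klk6 0.12 on the control diet and 0.0042 averaged, Cd9 diet effects of -0.11, -0.025 and -0.067, and interactions of -0.0077, 0.030 and -0.24 for Serpina3n, Il33 and Klk6. Library totals gave Cd81 -0.040 and interactions of 0.15 for Il33 and 0.024 for Anxa2. Without App_NCD 553, WT_NCD 4 and WT_HFD 16 the interactions were -0.26 for Serpina3n, 0.079 for Il33 and -0.0024 for Klk6.

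Correlations with Cx3cr1 in App libraries turned to 0.71 for Serpina3n and 0.74 for Il33 with library totals. With oligodendrocyte scaling they were -0.15 for C4b, 0.093 for Il33, -0.62 for Klk6 and, in WT, 0.16 for Anxa2. Against the mean of the homeostatic microglia markers Serpina3n was -0.065 in WT and 0.23 in App, and Il33 0.0060 in App. Centred on each diet group, an alternative chosen after the data were seen, Serpina3n was 0.052 in App. With 1 library left out, r ran from -0.77 to 0.34 for Serpina3n, -0.66 to 0.82 for C4b and -0.70 to 0.34 for Klk6 in App, and in WT from -0.067 to 0.41 for Serpina3n, -0.57 to 0.19 for Il33 and -0.40 to 0.033 for Anxa2. Differences ran from -0.16 to 0.069 for Il33 on the control diet, -0.19 to 0.088 for Klk6 on the high-fat diet and -0.038 to 0.21 for Cd81 averaged. Cd9 diet effects ran from -0.080 to 0.057 (WT), -0.043 to 0.18 (App) and -0.022 to 0.092 (averaged). Interactions ran from -0.14 to 0.34 for Serpina3n, -0.16 to 0.065 for Il33, -0.012 to 0.40 for Klk6, -0.042 to 0.19 for Cd9 and -0.25 to 0.056 for Anxa2.

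No paired analysis was possible because the groups share no replicate number. With 4 mice a group and a biological coefficient of variation of 36.5% (26.3% without App_NCD 553), small diet differences were not detectable.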
